A study of Mus musculus with 12 samples.

Results

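A set of 10 genes was followed in sorted splenic regulatory T cells (Treg): 7 receptors of natural killer (NK) cells (Klrb1c, Klra2, Klrd1, Klrc1, Klrk1, Klre1 and Ncr1), 2 cytotoxic granule proteins (Gzma and Prf1) and the transcription factor Eomes. The members were every non-control probe carrying one of these 10 gene names in the scanner files, which gave 13 probes of 55681. Of the 10 genes, 7 passed the filter on dim probes and were tested among 18545 genes. Klrk1, Klre1 and Ncr1 did not pass and are described by their values.

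The cells came from spleens of female C57BL/6 mice that carried either a conditional knockout of Cd83 (CD83cKO, here KO) or wild-type Cd83 (WT). RNA was taken from non-activated cells (0 h) or after 3 h with antibodies against CD3 and CD28, with 3 one-colour arrays in each of the 4 groups. WT mice were 9 weeks old. KO mice were 10 weeks old, except those of replicate 3 at 0 h and replicate 3 at 3 h, which were 21 weeks old. The labels name no Cre driver. They count 6 mice for 12 arrays and tie no array to a mouse, so arrays may share a mouse, and p-values measure the spread between arrays only. Amplification started from 20 ng of RNA for sample 1 at 0 h, whose genotype is not stated, and from 40 ng for the others. Which array this sample is cannot be told, and it may be a replicate 1 at 0 h. The 6 KO arrays shared 1 slide, and WT at 0 h and WT at 3 h had a slide each. Genotype, and activation in WT, therefore cannot be told apart from the slide, while activation in KO lies within 1 slide.

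NK cells kill target cells without prior antigen contact by balancing inhibitory and activating receptors. Many of these receptors are C-type lectin-like proteins. CD94 (Klrd1) pairs with NKG2A (Klrc1) to form an inhibitory receptor for a nonclassical MHC class I molecule, whereas NKG2D (Klrk1) and NKp46 (Ncr1) activate. Perforin (Prf1) opens the target membrane to granzymes such as granzyme A (Gzma), and Eomes is a T-box factor of NK cells and cytotoxic T cells. Conventional Treg are defined by Foxp3 and are not known for NK receptors as a class, although activated T cells can express several of these genes.

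Cd83 itself was lower in KO by 1.88 ± 0.265 on the log2 scale at 0 h (limma adjusted p = 0.0089), and every array detected it above background. The 10 T cell markers were well above background on every array. The Foxp3 probe was well above background on all 6 KO arrays and on 0 of the 6 WT arrays, while Il2ra and Ctla4 were above it on all 12. Both 21-week arrays stood apart. Relative to the WT mean at 0 h, their 10 T cell markers averaged -1.93 and -2.91 and their 7 plasma cell markers 6.08 and 6.50. On the 10-week KO arrays, T cell markers averaged -0.70 to -0.28 and plasma cell markers -0.27 to 1.75. In a mixed RNA sample, fewer cells of a type and less RNA per cell cannot be told apart.

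Of the 10 genes, 6 lie together on chromosome 6, in the cluster known as the NK gene complex, where their probes span 2.44 Mb of the mm9 build. Klrb1c, Klrc1 and Eomes each have a pair of probes, and for each gene only one of the pair entered the tests. The first 30 bases of the 60-base probes of Klrb1c and Klrc1 are printed because the probe decides what is detected. The Klrb1c probe at chr6:128729611-128729670 (mm9, minus strand) was well above background on 6 arrays, and the one at chr6:128734770-128734829 on 0. The Klrc1 probe at chr6:129616237-129616296 (minus strand) was above background on 11 arrays, and the one at chr6:129628315-129628374, 12019 bases away, on 1.
Klrb1c, tested probe: tgcttatgaagttggtatgctgaagacagt
Klrb1c, other probe: tgcgagtcttagtacaaaaaccatcaagag
Klrc1, tested probe: atactttttcctgtttcacagaatgacttc
Klrc1, other probe: ggcctcatctgttttgtcttaattgtcgct

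The tested Klrc1 probe carries an accession outside the RefSeq table used for names, so it keeps the symbol of the array design. NKG2, NKR-P1 and Ly49 genes have near-identical relatives in the same cluster, and the signal of a Klrc1, Klrb1c or Klra2 probe may include RNA of a relative. Whether a probe lies in a coding exon or an untranslated region was not analysed here. The tested Eomes probe lies at chr9:118394425-118394484 (plus strand), and the other Eomes probe, 705 bases further on, was above background only on the 21-week KO array at 0 h. Gzma was read at chr13:113884035-113884094 (minus strand) and Prf1 at chr10:60766941-60767000 (plus strand).

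Promoter windows from RefSeq (GRCm38.p6, 250 bases before to 50 after the gene start) were found for 9 of the 10 genes. They were searched on both strands for a RUNX site (ACCACA or TGTGGT) and a T-box site (TCACACC or GGTGTGA), since RUNX and T-box factors act in NK and cytotoxic T cells. The RUNX letters occurred in windows of 7 of the 9 genes, against 16.8% of 32851 promoter windows. The T-box letters occurred in 0 of the 9, against 3.98% of all windows. The windows of the 3 genes that passed with activation and of Gzma are printed, with the RUNX letters in capitals. They are Klrb1c (chr6:128788592-128788891, minus strand), Klra2 (chr6:131247313-131247612, minus strand), Gzma (chr13:113100932-113101231, minus strand) and Prf1 (chr10:61297586-61297885, plus strand).
Klrb1c: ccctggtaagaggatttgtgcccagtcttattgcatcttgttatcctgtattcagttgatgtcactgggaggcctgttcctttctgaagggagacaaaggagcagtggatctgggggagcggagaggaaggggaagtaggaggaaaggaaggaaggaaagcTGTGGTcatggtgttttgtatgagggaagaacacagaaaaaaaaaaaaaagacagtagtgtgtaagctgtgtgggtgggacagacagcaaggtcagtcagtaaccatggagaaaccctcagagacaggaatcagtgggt
Klra2: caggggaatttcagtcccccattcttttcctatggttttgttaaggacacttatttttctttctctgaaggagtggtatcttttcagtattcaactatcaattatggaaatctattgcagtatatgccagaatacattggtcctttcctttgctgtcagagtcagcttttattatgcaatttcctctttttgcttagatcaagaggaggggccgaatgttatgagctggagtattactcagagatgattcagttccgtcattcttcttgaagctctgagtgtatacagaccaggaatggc
Gzma: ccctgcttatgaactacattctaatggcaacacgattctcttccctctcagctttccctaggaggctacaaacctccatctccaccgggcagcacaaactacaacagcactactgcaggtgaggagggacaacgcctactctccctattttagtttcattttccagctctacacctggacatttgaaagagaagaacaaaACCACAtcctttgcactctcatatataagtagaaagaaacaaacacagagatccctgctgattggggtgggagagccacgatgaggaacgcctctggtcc
Prf1: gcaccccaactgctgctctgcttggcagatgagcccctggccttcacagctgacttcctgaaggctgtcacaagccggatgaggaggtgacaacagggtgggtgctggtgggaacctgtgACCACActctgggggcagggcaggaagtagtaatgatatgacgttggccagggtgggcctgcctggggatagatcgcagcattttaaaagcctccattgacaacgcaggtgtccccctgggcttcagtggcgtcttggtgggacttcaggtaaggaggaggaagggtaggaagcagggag

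In Klrb1c the RUNX letters begin 89 bases before the gene start, in Prf1 130 bases before it and in Gzma 50 bases before it. The Klra2 window holds neither motif. These matches describe letters in a window and are not sites shown to be bound.

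How many of the 10 genes were well above background differed between arrays. All 10 were above it on KO replicate 1 (10 weeks) and KO replicate 3 (21 weeks) at 0 h. Each of the 3 WT arrays at 0 h and KO replicate 2 had 7, and these were the same 7 genes: Klrb1c, Klra2, Klrd1, Klrc1, Gzma, Prf1 and Eomes. At 3 h the number was 4 or 5 in WT, 3 and 5 on the 10-week KO arrays and 7 on the 21-week KO array. Gzma, Prf1 and Eomes were the 3 genes detected on all 12 arrays. The share of all probes well above background also differed between arrays. At 0 h it was 54.63%, 49.08% and 45.35% on KO replicates 1, 2 and 3. On the WT arrays of both times it was 45.6% to 47.02%, and on the KO arrays at 3 h 43.07% to 43.55%.

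**Figure D1:**
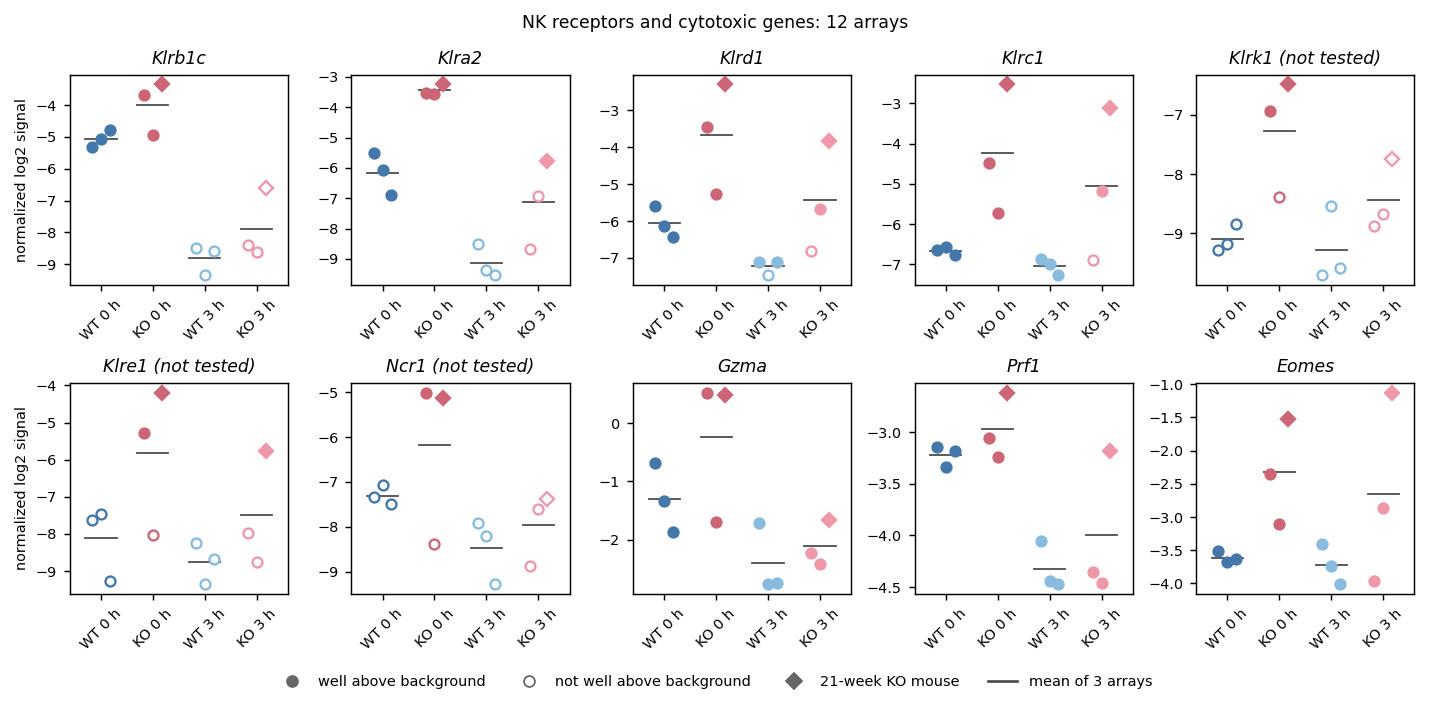
Normalized log2 signal (y axis; log2 processed signal minus the array's 75th percentile over probes detected on all arrays) of the 10 genes in the 4 groups (x axis), 1 point per array, lines for the mean of 3 arrays and open symbols for values not well above background. Diamonds are the 21-week KO arrays. At 3 h this array had the highest normalized KO signal for each of the 10 genes. Klrb1c, Klrk1 and Ncr1, however, were not well above background on any KO array at 3 h. Before the shift, Gzma (intensity 489 against 491 on replicate 1) and Ncr1 (9.22 against 13.2 on replicate 2) were not highest on it. Each panel has its own y scale.

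At 0 h the 7 tested genes were higher in KO than in WT, but none passed the test. The genotype difference ranged from 0.25 for Prf1 to 2.71 for Klra2 (log2), with a median of 1.28 against -0.03 over all genes. Passing genes numbered 0 of 7, where 1.82% of all genes rose and 0.259% fell in limma at an adjusted p under 0.05; at an unadjusted p under 0.05, 3 of the 7 were higher (Klra2, Klrd1 and Klrc1), against 10.6% of all genes. KO and WT arrays did not overlap for 4 of the 7 (Klra2, Klrd1, Klrc1 and Eomes), against 16.9% of all genes with every KO array higher.

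Klra2, which encodes the Ly49 family receptor Ly49B known from myeloid cells, had the largest genotype difference. Its normalized log2 signal at 0 h was -5.50, -6.08 and -6.89 in WT and -3.53, -3.57 and -3.24 in KO. All 3 KO arrays were above all WT arrays, and KO replicate 3 (21 weeks) was close to both 10-week arrays. The difference was 2.71 ± 0.634 (SE; limma adjusted p = 0.0625). It passed the threshold in 6 of 9 alternatives other than leaving out single arrays, among them the fit without the 21-week arrays (2.61, adjusted p = 0.0392, with 4.71% of genes rising), the authors' deposited log2 values (2.49, adjusted p = 0.0482) and normexp background correction (1.48, adjusted p = 0.0138). With 1 array left out, it did not pass in 10 of 12 fits (adjusted p up to 0.264). It passed without KO replicate 1 at 3 h (adjusted p = 0.0132) or KO replicate 3 at 3 h (0.0183). In these fits the difference stayed 2.71 and only the standard error was smaller (0.427 and 0.492).

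Klrd1 (CD94) had signals at 0 h of -5.59, -6.13 and -6.44 in WT and -3.44, -5.27 and -2.29 in KO. The 21-week array was the highest and KO replicate 2 lay next to the WT arrays. The difference was 2.39 ± 0.807 (limma adjusted p = 0.189), and 1.70 without the 21-week arrays. Klrc1 (NKG2A) followed the same order, with -6.65, -6.57 and -6.76 in WT and -4.47, -5.73 and -2.52 in KO. The KO arrays spread widely (SD 1.62) and the WT arrays little (SD 0.10). The difference was 2.42 ± 0.919 (limma adjusted p = 0.243), and 1.56 without the 21-week arrays. Under normexp the differences of Klrd1 and Klrc1 were 1.40 and 1.34.

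Klrb1c, the NKR-P1C receptor used as an NK cell marker in C57BL/6 mice, measured -5.32, -5.08 and -4.78 in WT and -3.68, -4.93 and -3.34 in KO at 0 h. KO replicate 2 fell among the WT arrays, so the groups overlapped. The difference was 1.07 ± 0.553 (limma adjusted p = 0.396).

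Klre1, Ncr1 and Klrk1 were not well above background on any WT array at either time. Klre1, a lectin-like receptor of NK cells, measured -5.28 and -4.20 on KO replicates 1 and 3 at 0 h and -5.76 on KO replicate 3 at 3 h, its only detected values. Ncr1 (NKp46) was detected at -5.01 and -5.12 and Klrk1 (NKG2D) at -6.94 and -6.48, both on KO replicates 1 and 3 at 0 h. All 3 receptors were thus detected on the same 10-week array and on the 21-week array, and none of them on KO replicate 2 at 0 h, where Klre1 measured -8.02, Ncr1 -8.39 and Klrk1 -8.38. In a fit with no filter on dim probes, none of the 3 passed in the genotype comparisons, where 0.776% of genes rose at 0 h and 14.4% at 3 h.

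Of the granule proteins, Gzma measured -0.69, -1.33 and -1.86 in WT and 0.52, -1.69 and 0.48 in KO at 0 h. KO replicates 1 and 3 were above every WT array, and KO replicate 2 lay within the WT range. The difference was 1.06 ± 0.583 (limma adjusted p = 0.423). Prf1 differed least, with -3.14, -3.34 and -3.18 in WT and -3.06, -3.24 and -2.62 in KO. Its difference of 0.25 ± 0.318 was smaller than its standard error (limma adjusted p = 0.743). Eomes measured -3.51, -3.68 and -3.64 in WT and -2.35, -3.10 and -1.53 in KO, with no overlap. Its difference was 1.28 ± 0.619 (limma adjusted p = 0.360), and 0.88 without the 21-week arrays.

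Markers of other cell types moved with the same comparison. Of the 11 tested monocyte and macrophage markers, 10 rose in KO at 0 h, and their mean relative to WT at 0 h was -0.38 to 0.44 in WT and 2.07 to 2.68 in KO. The pair of CD8 T cell markers, Cd8a and Cd8b1, did not pass; their mean was -0.07 to 0.06 in WT and 1.53, 0.20 and 2.19 on KO replicates 1, 2 and 3. Replicate 2 was the lowest of the KO arrays at 0 h for all 7 tested genes and for the CD8 T cell, B cell, dendritic cell and neutrophil lists. Of the remaining lists, 2 of 9 dendritic cell markers (Itgax and Batf3) and 1 of 5 innate lymphoid markers (Kit) rose, while 0 of 9 B cell, 7 plasma cell, 7 erythroid, 3 platelet and 3 neutrophil markers passed. The median differences of these 5 lists were nevertheless positive, with 1.28 for B cell, 4.04 for plasma cell, 2.95 for erythroid, 2.92 for platelet and 3.16 for neutrophil markers. At 0 h the means of the plasma cell, erythroid, platelet, neutrophil, dendritic cell and CD8 T cell lists were higher in KO without overlap. Those of the B cell list overlapped. T cell and Treg means were lower in KO, also without overlap. The part of these cell types in the genotype differences was not tested.

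At 3 h all 7 tested genes again had higher means in KO and none passed; only Klra2 had an unadjusted p under 0.05, against 7.85% of all genes higher at that threshold. The median difference was 1.07, against 0.04 over all genes, of which 1.26% rose and 0.189% fell. Only Klrd1 had no overlap between genotypes, against 11.8% of all genes. Its signals were -7.10, -7.47 and -7.11 in WT and -6.82, -5.67 and -3.82 in KO, and the difference was 1.79 ± 0.807 (limma adjusted p = 0.473). WT replicate 2 and KO replicate 1 were not well above background, so the lack of overlap rests partly on background readings.

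Klra2 differed by 2.00 ± 0.634 at 3 h (limma adjusted p = 0.247), but it was well above background only on the 21-week KO array and on 0 of the 3 WT arrays. KO replicates 1 (-8.67) and 2 (-6.94) were not well above background, and replicate 1 lay within the WT range (-9.54 to -8.50). The KO mean thus holds background readings, and no bound on the fold can be given. Under normexp the difference was 0.63 (adjusted p = 0.337). Without KO replicate 1 the difference was 2.76 (adjusted p = 0.0197), and without the 21-week arrays 1.33 (adjusted p = 0.390). Klrc1 measured -6.87, -7.00 and -7.27 in WT and -6.88, -5.18 and -3.11 in KO, a difference of 1.99 ± 0.919 (limma adjusted p = 0.481). Its values on the KO arrays ran from the WT level on replicate 1, not well above background, to the highest on the 21-week array. Eomes showed the same order at 3 h, with -3.41, -3.74 and -4.01 in WT and -3.97, -2.86 and -1.13 in KO.

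Gzma and Prf1 had nearly equal means in both genotypes at 3 h. Gzma differed by 0.30 ± 0.583 (limma adjusted p = 0.810) and Prf1 by 0.32 ± 0.318 (limma adjusted p = 0.663). Both signs turned with no shift between arrays (-0.10 and -0.08), and that of Prf1 also without the 21-week arrays (-0.09) and with array quality weights (-0.02). Klrb1c (0.92 ± 0.553) is counted among the 7, but it was not well above background on any array at 3 h, so its difference is one between background readings.

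**Figure D2:**
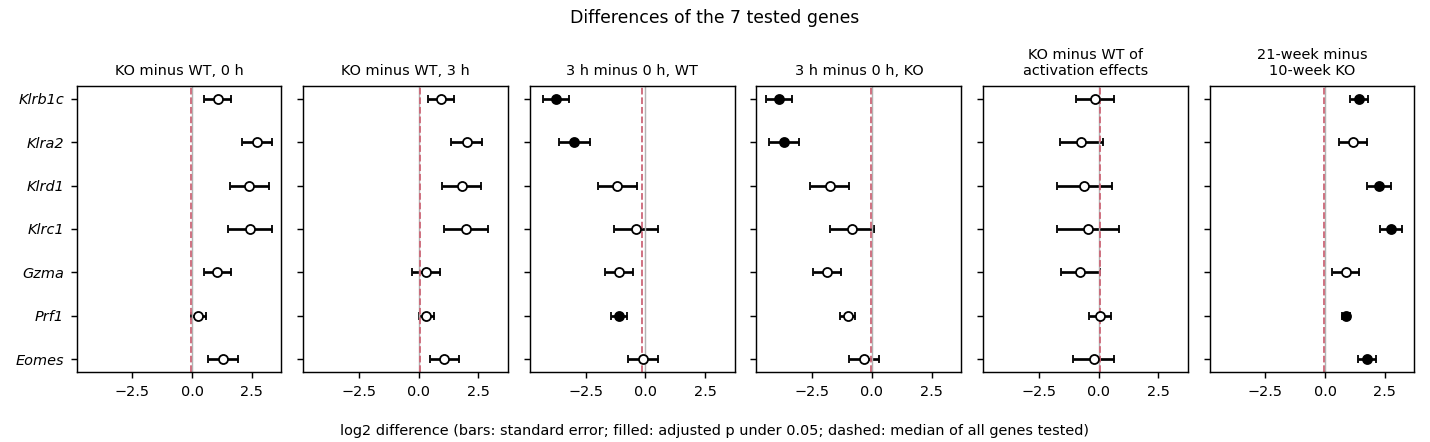
Log2 differences (x axis) of the 7 tested genes (rows) in 6 comparisons (panels), with standard errors as bars and filled symbols for a limma adjusted p under 0.05. Dashed lines mark the median of all 18545 genes tested. Filled symbols appear for Klrb1c, Klra2 and Prf1 in WT activation, for Klrb1c and Klra2 in KO activation, and for 5 genes in the age comparison.

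After 3 h of stimulation through CD3 and CD28, Klrb1c and Klra2 fell in both genotypes and Prf1 fell in WT. In WT, 3 of the 7 tested genes fell and 0 rose, where 16.6% of all genes fell and 13.3% rose. Their median difference was -1.11, against -0.14 over all genes. Arrays of both times did not overlap for 5 of the 7, against 39.4% of all genes with every 3 h array lower. In KO, 2 of the 7 fell and 0 rose, where 9.79% of all genes fell and 7.38% rose, and the median was -1.77 against -0.04. Both genes fell with no overlap between arrays, against 13.5% of all genes. Klrb1c, Klra2 and Klrd1 passed the filter on dim probes only through the 0 h groups, where they were higher. The filter thus favoured a fall of these genes with activation. The counts, medians and overlaps therefore cannot show that the members fell more than other genes.

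Klrb1c was detected only before activation. Its signal went from -5.32, -5.08 and -4.78 at 0 h to -8.48, -9.35 and -8.58 at 3 h in WT, and from -3.68, -4.93 and -3.34 to -8.39, -8.63 and -6.62 in KO. All 6 arrays at 0 h were well above background and 0 of the 6 at 3 h. The differences were -3.74 ± 0.553 in WT (limma adjusted p = 0.00118) and -3.89 ± 0.553 in KO (limma adjusted p = 0.00227). With normexp background correction, whose offset of 50 compresses dim values, Klrb1c still fell but by less (-0.97 in WT and -1.05 in KO, adjusted p = 0.0321 and 0.0373). Because the 3 h values lie in the background, the folds are bounds: Klrb1c was at least 5.51-fold lower at 3 h in WT and at least 6.00-fold lower in KO. Each bound sets the 0 h mean against a floor at 3 h, which on each array is the probe's value or the lowest detected value, whichever is higher.

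Klra2 went from -5.50, -6.08 and -6.89 to -8.50, -9.36 and -9.54 in WT, a difference of -2.97 ± 0.634 (limma adjusted p = 0.00698) and a signal at least 2.57-fold lower. Under normexp the WT difference was -0.57 (adjusted p = 0.107). In KO it went from -3.53, -3.57 and -3.24 to -8.67, -6.94 and -5.79, a difference of -3.69 ± 0.634 (limma adjusted p = 0.00501, and -1.42 under normexp, adjusted p = 0.00457). The 21-week array was the only one at 3 h with Klra2 well above background. Fitted on the 6 KO arrays alone, neither Klra2 (adjusted p = 0.0904) nor Klrb1c (0.0745) passed in KO, with the same differences, where 0.329% of all genes fell.

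Perforin fell modestly. Prf1 measured -3.14, -3.34 and -3.18 at 0 h and -4.05, -4.44 and -4.47 at 3 h in WT, with no overlap. The difference was -1.10 ± 0.318 (limma adjusted p = 0.0268). It lost the threshold when any one of WT replicates 1, 2 or 3 at 0 h, or 2 or 3 at 3 h, was left out (adjusted p from 0.0595 to 0.0872), and with no filter on dim probes (0.0571). In KO it went from -3.06, -3.24 and -2.62 to -4.35, -4.46 and -3.18, so the 21-week array at 3 h lay among the 0 h arrays. That difference was -1.02 ± 0.318 (limma adjusted p = 0.0525), and it passed in 6 of 11 alternatives, among them the fit without the 21-week arrays (-1.25, adjusted p = 0.000594).

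Gzma was lower at 3 h in both genotypes without passing. It measured -1.72, -2.76 and -2.74 in WT and -2.22, -2.42 and -1.66 in KO at 3 h. The WT arrays of both times overlapped, and in KO the 0 h value of replicate 2 (-1.69) lay below the highest 3 h value. The difference was -1.11 ± 0.583 in WT (limma adjusted p = 0.180) and -1.87 ± 0.583 in KO (limma adjusted p = 0.0529). Without KO replicate 2 at 0 h the KO difference was -2.60 (adjusted p = 0.0100), and without KO replicate 3 at 3 h it was -2.09 (adjusted p = 0.0355).

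Klrd1 differed by -1.17 ± 0.807 in WT (limma adjusted p = 0.305) and by -1.77 ± 0.807 in KO (limma adjusted p = 0.162). The KO difference was -1.89 without the 21-week arrays (adjusted p = 0.0329, with 25.9% of genes falling). Klrc1 and Eomes had the smallest activation differences. Klrc1 differed by -0.38 ± 0.919 in WT and -0.82 ± 0.919 in KO (limma adjusted p = 0.794 and 0.587), and Eomes by -0.11 ± 0.619 and -0.33 ± 0.619 (0.919 and 0.769). In WT, Klrc1 was already dim at 0 h (-6.76 to -6.57). The lowest detected values of the WT arrays at 3 h were -7.66 to -7.40, so a large fall of Klrc1 could not be measured there. In KO its value on replicate 1 at 3 h was not well above background.

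Monocyte and macrophage markers moved in the same direction at 3 h, with 9 of 11 falling in WT and 8 of 11 in KO. Their mean relative to WT at 0 h was -2.41 to -1.82 in WT at 3 h and -0.12 to 0.82 in KO at 3 h. Of the CD8 T cell markers, Cd8b1 fell in both genotypes, with -0.71 in WT and -1.28 in KO. Of the 10 T cell markers, Lck fell in WT and none passed in KO. Their mean relative to WT at 0 h was nevertheless -0.70 to -0.59 in WT at 3 h. Without the 21-week arrays 7 of the 10 fell in WT, where 5863 of 18545 genes fell. In KO 6 then fell and 3 rose, where 4810 of all genes fell and 3756 rose. The part of these markers in the activation differences was not tested.

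The activation differences of KO and WT were compared directly. None of the 7 genes passed or had an unadjusted p under 0.05, and 0 of 18545 genes did in limma, with 347 higher and 341 lower at an unadjusted p under 0.05. The alternatives called 0 to 4 genes. The KO minus WT values ran from -0.76 ± 0.824 for Gzma to 0.07 ± 0.450 for Prf1, with a median of -0.44 against 0.06 over all genes. Klrb1c on all 6 arrays at 3 h, and Klra2 on the 3 WT arrays, lay in the background, so their values (-0.15 ± 0.783 and -0.72 ± 0.897) do not measure a difference of activation.

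Within KO, the 21-week arrays had a higher mean than the 10-week arrays for all 7 tested genes, and 5 passed the test. The comparison sets 2 arrays against 4, with the time point in the model, and the 2 arrays may come from 1 mouse. Of all genes, 23.1% rose and 24.9% fell in this comparison. The members' median was 1.43, against -0.03 over all genes. Arrays of the 2 ages, taken over both times, did not overlap for Klrc1 and Eomes, against 19.7% of all genes with both 21-week arrays higher.

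Klrc1 rose most, by 2.75 ± 0.449 (limma adjusted p = 0.00108). At 0 h the 21-week array measured -2.52 and the 10-week arrays -4.47 and -5.73, and at 3 h -3.11 against -6.88 and -5.18. Its partner Klrd1 rose by 2.25 ± 0.489 (limma adjusted p = 0.00488), with gaps to the 10-week mean of 2.07 at 0 h and 2.43 at 3 h. RNA signals of the probes named for both chains of the CD94 and NKG2A receptor were thus higher on the 21-week array at both times. The signal of the Klrc1 probe may include RNA of a relative. Under normexp both passed with smaller differences, 1.96 for Klrc1 and 1.5 for Klrd1.

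Eomes rose by 1.75 ± 0.361 (limma adjusted p = 0.00375), with gaps of 1.20 at 0 h and 2.29 at 3 h. Prf1 rose by 0.87 ± 0.183 (limma adjusted p = 0.00408), with gaps of 0.53 and 1.22. Klrb1c rose by 1.43 ± 0.382 (limma adjusted p = 0.0132), but at 3 h none of its KO values was well above background, so the measured gap is that at 0 h, 0.97. Gzma (0.86 ± 0.573, limma adjusted p = 0.243) and Klra2 (1.16 ± 0.582, limma adjusted p = 0.129) did not pass, although Klra2 did under normexp (0.60, adjusted p = 0.0134). Under normexp Klrb1c rose by 0.85. At 0 h Gzma was as high on the 10-week replicate 1 (0.52) as on the 21-week array (0.48).

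These age calls rested on few arrays. Without KO replicate 3 at 3 h, Klrc1 still passed and the other 4 did not (Klrd1 adjusted p = 0.0592, Prf1 0.0731, Eomes 0.0788, Klrb1c 0.185). With array quality weights, too, only Klrc1 passed, and on the 6 KO arrays alone Klrb1c did not (adjusted p = 0.0591). With no shift between arrays Klrb1c differed by 0.74 (adjusted p = 0.151) and Prf1 by 0.18 (0.455); the 21-week arrays were the dimmest, with a 75th percentile over all probes of 184.1 and 167.5 intensity units against 222.9 to 331.9 on the 10-week KO arrays. On the same arrays all 10 T cell markers and 7 of 10 Treg markers (median -2.32) fell. All 3 tested neutrophil markers (median 5.28), all 7 plasma cell markers (5.15) and 5 of 9 dendritic cell markers (1.13) rose, and Cd8a rose by 2.22 ± 0.545 (limma adjusted p = 0.00884). The part of these cell types in the rise of the NK genes was not tested.

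**Figure D3:**
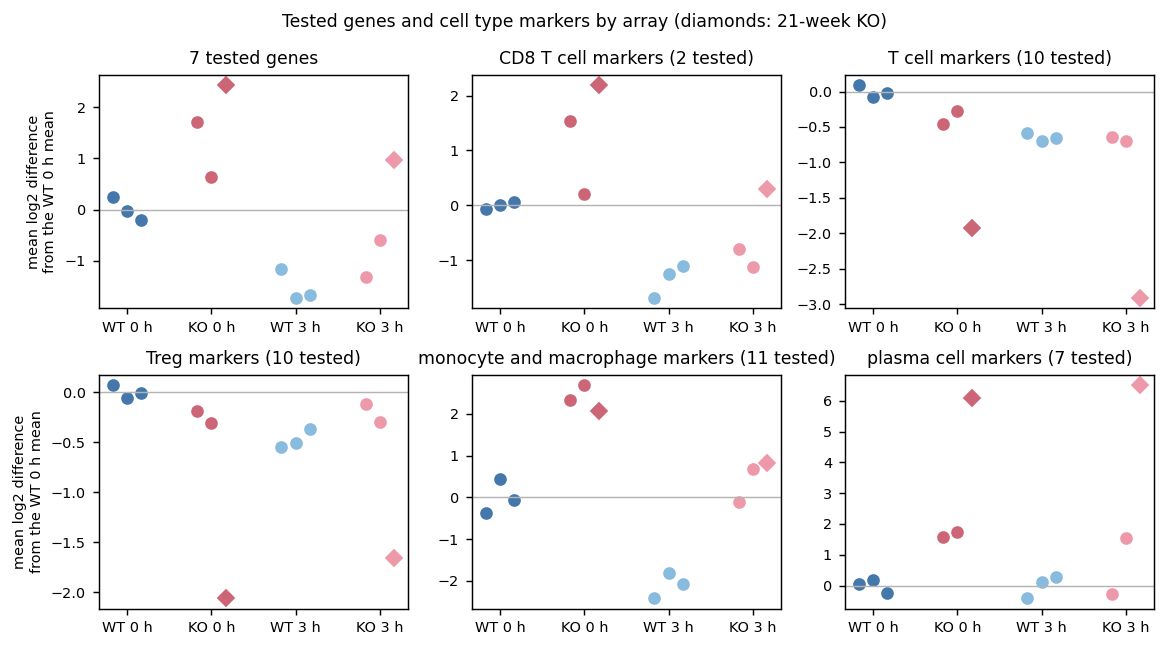
Mean log2 difference from the WT mean at 0 h (y axis) of the 7 tested NK and cytotoxic genes and of 5 cell type marker lists, 1 point per array in each group (x axis), with diamonds for 21-week KO arrays. The 7 genes averaged 1.72 and 2.43 on KO replicates 1 and 3 at 0 h and 0.64 on replicate 2. Macrophage markers averaged 2.07 to 2.68 on these arrays. The average hides differences between the genes. The log2 signals on KO replicates 1, 2 and 3 were -3.53, -3.57 and -3.24 for Klra2 and -3.06, -3.24 and -2.62 for Prf1. Each panel has its own y scale.

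Across the 12 arrays, which include all genotype, time and age differences, the 7 genes varied in different ways. Klrc1 and Eomes had a Pearson r of 0.975 with each other, Klrc1 and Klrd1 0.939, and Klrb1c and Prf1 0.949. The lowest was 0.448, between Klrb1c and Eomes. These are descriptions over arrays that share slides and perhaps mice. The first 3 genes differed most with age, whereas Klrb1c fell at 3 h in both genotypes and Prf1 in WT.

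Among non-member genes, those most like Gzma over the 12 arrays included Klra16 (r = 0.944) and Klra15 (0.917), both Ly49 family genes, and Tiam2 (0.940). Prf1 was most like Alg8 (r = 0.984), Cep131 (0.983), Sfxn1 (0.982) and Gemin5 (0.980). Klrc1 was like Papss2 (r = 0.979), Tmem82 (0.977) and Gng11 (0.973), and Eomes also like Papss2 (0.967). The remaining genes among the 5 most like each of these 4 members carry only probe or database identifiers. Klra2, singled out after its values were seen, was most like Sirpb1b (r = 0.983) and Sirpb1a (0.982), signal regulatory proteins.

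Other genes of the NK system were described by 7 lists. Of the lectin-like receptors beyond the members, 8 of 22 were tested. Klrg1, an inhibitory receptor also carried by effector Treg, was lower in KO, with -3.71 ± 0.743 before and -3.75 ± 0.743 after activation (limma adjusted p = 0.0333 and 0.0386). It was the only one of the 8 to pass in either genotype comparison, and the list's median was 1.02 at 0 h and 0.18 at 3 h. With activation, 2 of the 8 fell in each genotype and 0 rose. Klrb1a, a relative of Klrb1c, fell in both (-3.09 ± 0.526 in WT and -3.36 ± 0.526 in KO, limma adjusted p = 0.0024 and 0.00324). The Ly49 genes Klra7 and Klra8 rose with age in KO by 2.62 and 2.43, while Klrg1 (-2.27) and Klra1 (-1.45) fell.

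Of 14 tested activating and adhesion receptors and adaptors, 2 rose in KO at both times. These were Tyrobp (DAP12) and Fcer1g, signalling adaptors that NK cells share with myeloid cells. Tyrobp differed by 2.19 ± 0.384 at 0 h (limma adjusted p = 0.0205) and Fcer1g by 2.17 ± 0.392 (adjusted p = 0.0229), and both were well above background on all 12 arrays. The median of the 14 was -0.27 at 0 h and 0.66 at 3 h. With activation 8 fell and 1 rose in WT, and 4 fell and 0 rose in KO. Cd160, a receptor of NK cells and CD8 T cells, fell in WT (-2.16) and KO (-1.64). In the age comparison 3 rose and 5 fell, with Slamf7 at 3.43 and Cd96 at -2.95.

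Of 13 tested granule effectors and inhibitors, none passed in either genotype comparison, with medians of 0.02 and 0.21. In WT, 2 rose and 3 fell with activation, and in KO 2 rose and 4 fell. Fasl, the Fas ligand, rose by 1.59 ± 0.365 in both (limma adjusted p = 0.00951 in WT and 0.0162 in KO), and so did Srgn, the granule proteoglycan serglycin (1.25 and 1.66). Tnfsf10, which encodes TRAIL, fell in WT (-2.48) and KO (-1.65). The genes of this list therefore did not all move with Prf1. With age in KO, Gzmk (3.19), Nkg7 (1.93) and Gzmm (1.69) were among the 4 of 13 that rose, and Fasl was among the 2 that fell.

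All 10 genes of granule exocytosis were tested, and none passed between genotypes. With activation 2 rose and 2 fell in WT, and 1 rose and 2 fell in KO. Unc13d, a priming factor for granule fusion, fell in WT (-1.49) and KO (-1.28), while Stx11, a syntaxin of the same step, rose by 2.59 and 1.52. With age in KO 3 rose and 4 fell.

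Among 11 tested lineage transcription factors, Zeb2 rose in KO, by 2.53 ± 0.363 before and 1.81 ± 0.363 after activation (limma adjusted p = 0.00945 and 0.0413, the latter 0.0584 without the 21-week arrays). It was the only one to pass between genotypes. With activation 3 rose in WT and 1 in KO, with none falling. Nfil3, a factor needed for NK cell development, rose by 2.85 ± 0.201 in WT and 3.01 ± 0.201 in KO (limma adjusted p = 6.67e-05 and 7.17e-05), opposite in sign to Klrb1c and Klra2. On the 21-week arrays 3 rose and 5 fell, led by Prdm1 (3.48) and Ikzf2 (-3.48).

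Of 15 tested cytokines, chemokines and receptors, Il12rb1 fell in KO at 0 h by 1.35 ± 0.208 (limma adjusted p = 0.0122) and 0 passed at 3 h, where Ccl4 (3.05, adjusted p = 0.0550) and Ccl3 (3.20, 0.0601) had the largest differences. Cxcr4 rose with activation by 3.42 in WT and 2.49 in KO. In total 4 rose and 1 fell in WT, and 2 rose and 1 fell in KO. In the age comparison 4 rose, with Xcl1 (3.99) and Ccl5 (2.04), and 3 fell.

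Ligands of NK receptors included 9 tested genes. Cadm1, the ligand of Crtam, rose in KO by 2.35 ± 0.454 at 0 h and 2.51 ± 0.454 at 3 h (limma adjusted p = 0.03 and 0.0255, the latter 0.0827 without the 21-week arrays). With activation 2 rose and 1 fell in each genotype: Raet1e, an NKG2D ligand, rose by 2.05 in WT and 1.63 in KO, Pvr by 1.51 and 1.69, and Cd48 fell (-1.70 and -1.48). Between ages 5 fell and 2 rose, and H2-T23, which encodes the molecule bound by CD94 and NKG2A, was lower (-2.90) where Klrd1 and Klrc1 were higher.

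**Figure D4:**
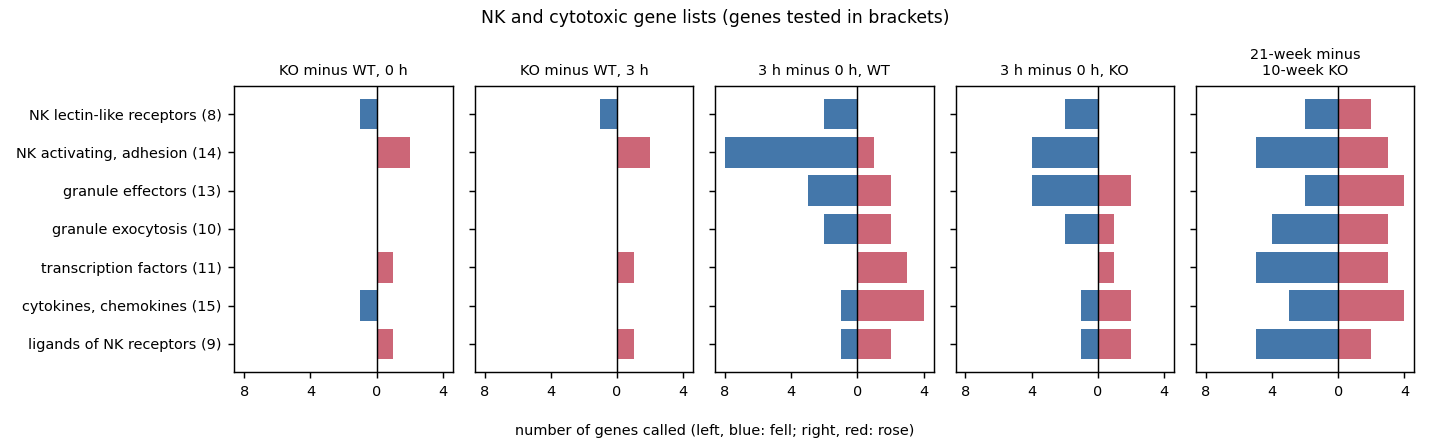
Number of genes called (x axis; limma adjusted p under 0.05) that rose (right, red) or fell (left, blue) in 7 lists of the NK and cytotoxic system (rows, genes tested in brackets) in 5 comparisons. Few genes were called between genotypes, and activating and adhesion receptors had the most falls with WT activation (8 of 14).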

How the data were processed

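The 12 arrays are single-dye Agilent arrays on 3 slides. Spot intensity in the deposited files comes from the scanner, background-subtracted and detrended per array but not normalized between arrays. The headers name Feature Extraction 10.7.3.1 and the submitters' processing notes version 11. The authors also deposited log2 values, with a median of 3.89 on every array and a scaling the sources used here do not give, which served as an alternative.

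Control and outlier spots were left out and spots of a probe averaged. On average 46.42% of probes were well above background, so each array's log2 processed signal was shifted by its 75th percentile over 19799 probes detected on all 12 arrays. No probe was saturated. The number of arrays limits the precision. Probes well above background on all 3 arrays of a group were tested, the brightest per gene. limma 3.58.1 in R 4.3.3 fitted 4 group means with 8 residual degrees of freedom (two-sided, Benjamini-Hochberg over 18545 genes, threshold 0.05); values are log2 differences ± SE. The age comparison added a 21-week term. A fold against a group with no detected array is a lower bound where every array of the other group was detected. The fit was tested on simulated data. Coordinates of probes are those of the array design (mm9); promoters and current symbols come from RefSeq (GRCm38.p6).

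Text names all members; from each list up to 4 called genes with the largest statistic per comparison, or up to 2 by difference; and the 5 genes most correlated with each of the 4 most often detected members. Members and lists were chosen with earlier results of these data known. Alternatives were normexp (offset 50), other shifts, quantile normalization, the deposited table, other probe filters, the mean of a gene's probes, array quality weights, and leaving out arrays. Python 3.11.15, pandas 2.3.3 and matplotlib 3.10.9 made the summaries.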

Additional observations from a re-analysis of the deposited data

How the results depend on the processing

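Over the 11 alternatives other than leaving out single arrays, 364 of 403 member values kept their sign and side of the threshold, 18 passed only in the alternative, 11 lost the threshold and 10 changed sign. The cause of these changes was not tested. No value that changed sign had been called. Leaving out 1 array also turned signs, so that the difference of activation effects ran from -0.78 to 0.22 for Klrb1c, -1.39 to 0.05 for Klra2, -1.40 to 0.10 for Klrd1, -1.41 to 0.47 for Klrc1, -0.33 to 0.30 for Prf1 and -0.98 to 0.45 for Eomes. Activation ran from -1.79 to 0.09 for Klrc1 and -1.09 to 0.33 for Eomes in KO, and from -0.27 to 0.03 for Eomes in WT, and Prf1 between genotypes at 3 h from -0.09 to 0.55. In the other alternatives the signs that turned were, at 3 h between genotypes, Gzma (-0.10) and Prf1 (-0.08) with no shift, and Prf1 with array quality weights (-0.02) and without the 21-week arrays (-0.09). In the difference of activation effects they were Prf1 with no shift (-0.31), the deposited log2 table (-0.02), array quality weights (-0.07) and without the 21-week arrays (-0.16), and Klrb1c (0.08) and Klrc1 (0.12) with array quality weights.

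Counts of called genes moved by over 1.5 times as follows. For KO against WT at 0 h (385 genes) they were 220 with probes detected on all 12 arrays, 2089 with array quality weights, 1229 without the 21-week arrays, and 81 to 1096 leaving out 1 array. For KO against WT at 3 h (268) they were 118 with no shift, 5075 with no filter on dim probes, 158 with probes detected on all 12 arrays, 446 with array quality weights, and 130 to 562 leaving out 1 array. For activation in WT (5543) they were 2822 with no shift, 12227 with array quality weights, 10348 without the 21-week arrays, and 3630 to 7650 leaving out 1 array. For activation in KO (3183) they were 1915 with no filter, 7816 with array quality weights, 8566 without the 21-week arrays, 104 on the 6 KO arrays alone, and 1800 to 6893 leaving out 1 array. The difference of activation effects (0) gave 2 with the shift over all probes, 4 with quantile normalization, 4 with the deposited table, 1 with the mean of probes, 2 with array quality weights, and 0 to 1 leaving out 1 array. The age comparison (8891) gave 3104 with array quality weights, 4738 on the 6 KO arrays alone, and 6658 to 8926 leaving out 1 array.

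No paired analysis was possible because the labels give the arrays no replicate numbers and tie no array to a mouse. The replicate numbers used here follow the order of deposit and pair nothing. Signal over background limits Klrb1c and Klra2 at 3 h, and Klrk1, Klre1 and Ncr1 on all WT arrays. It also limits Klrd1 and Klrc1 on some arrays at 3 h.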
